A study of Rattus norvegicus with 8 samples.

Results

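The kainate receptor subunits Grik1 to Grik5 encode the proteins GluK1 to GluK5 and were chosen as the non-control spots whose gene name in the scanner files equals one of these symbols. They make up 5 of 35250 gene names and 6 of 43379 spots on the array, with 2 probes for Grik1 and 1 for each of the others. Total RNA from the dentate gyrus (DG) of 8 adult female Sprague-Dawley rats was measured, each rat in 1 channel of a 2-colour Agilent array. All rats had been ovariectomized (OVX) and had undergone status epilepticus (SE) after kainic acid. In the COS group 4 rats received oil. In the CES group 4 rats were E2-replaced with 4 doses of 2 µg of estradiol, labelled EB, at intervals of 24 h. By the sample records, kainic acid was given at 16 mg/kg, pentobarbital ended SE after 5 h, and E2 was given both before and after SE. The methods, which give an age of 8 to 9 weeks, differ on the dose of kainic acid, on the agent that ended SE, and on the times of the E2 doses and of tissue collection, and the scanner files hold nothing that decides between them. Each of 4 arrays, all on 1 slide, held a pair of rats of the same group, with replicates 1 and 3 in Cy3 and replicates 2 and 4 in Cy5. The groups without SE were not analysed here, so a difference between CES and COS is not a change from a state without seizures. OVX removes the ovarian hormones but not the steroids that the brain makes itself. The comparison asks whether E2 replacement was accompanied by other levels of the subunit transcripts in the DG after SE.

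Kainate receptors are tetrameric, glutamate-gated cation channels. GluK1, GluK2 and GluK3, the low-affinity subunits, form channels by themselves, whereas GluK4 and GluK5, the high-affinity subunits, reach the membrane as functional channels only together with a low-affinity subunit. In the hippocampus they are best known at the mossy fibre synapse, where granule cell axons contact CA3 pyramidal cells, and they act there on both sides of the synapse. Kainic acid, which elicited the seizures here, is the agonist that gave the family its name.

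The probes for the 4 subunits that could be compared decide what each value measures, and the sequences of 4 probes are shown for that reason, 5′ to 3′ as the files give them, in the sense of the transcript.
Grik1, first probe: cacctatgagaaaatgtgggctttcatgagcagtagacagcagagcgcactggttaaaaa
Grik1, second probe: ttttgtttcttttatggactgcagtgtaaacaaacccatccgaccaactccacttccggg
Grik4: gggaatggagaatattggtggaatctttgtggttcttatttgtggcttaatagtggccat
Grik5: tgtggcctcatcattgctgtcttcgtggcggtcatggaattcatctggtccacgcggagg
On the rat build rn4, the first Grik1 probe lies at chr11:27734832-27734891 and the second at chr11:27721592-27721651, both on the minus strand. The Grik4 probe lies at chr8:45514232-45514291 and the Grik5 probe at chr1:80318013-80318072, both on the minus strand. The Grik2 probe lies at chr20:53230626-53230685 on the minus strand and the Grik3 probe at chr5:145057689-145057748 on the plus strand. The files do not annotate exons, and no annotation of this build was used, so the exon of each probe was not analysed here. Each probe is 60 bases long. The Grik4 and Grik5 probes share no run longer than 6 bases, and the longest run that any pair of the 6 probes shares is 8 bases, between the first Grik1 probe and the Grik2 probe. A single probe does not tell apart the splice forms that contain it.

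Detection differed between the subunits. A spot was valid at a foreground of 2 or more times the local background, and the scanner software marks separately the spots it finds well above background. The probes for Grik4, for Grik5 and the first probe for Grik1 were well above background in 8 of 8 rats. The Grik2 probe was well above background in 4 of 4 CES rats and in 3 of 4 COS rats, the exception being COS replicate 3. Neither the Grik3 probe nor the second Grik1 probe was well above background in any rat.

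**Figure D1:**
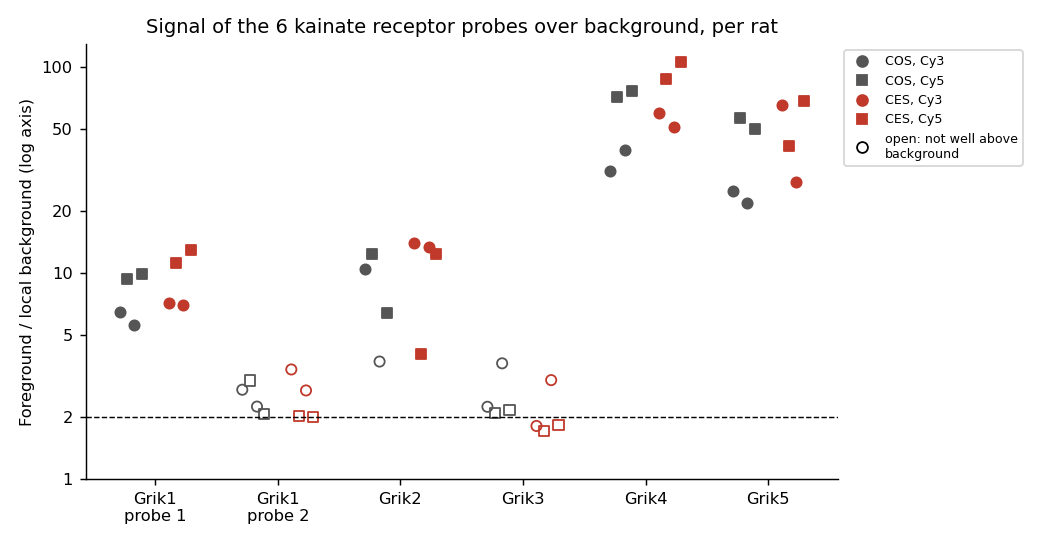
Mean foreground over the median local background, on a log axis, for each of the 6 probes in each rat, with circles for Cy3, squares for Cy5, open symbols for spots not well above background and a dashed line at the validity limit of 2. Grik4 and Grik5 stand clear of background, whereas Grik3 and the second Grik1 probe lie around the limit. Heights of different probes are not comparable as transcript levels.

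Grik3, which encodes a low-affinity subunit, was not quantified, because its spot was not valid in all 8 rats. Its foreground intensity was 108, 84.3, 106 and 82.6 in COS replicates 1 to 4 and 89.9, 68.7, 100 and 66.3 in CES replicates 1 to 4. It was valid in 4 of 4 COS rats and in 1 of 4 CES rats, CES replicate 3. No fold is given, since the probe was below the well-above-background mark in both groups.

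Of the 4 quantified subunits, Grik4 was the one called higher in CES, and the differences of Grik1, Grik2 and Grik5 had the same sign but did not pass the test. The test was limma over all 21372 quantified genes, two-sided, which took account of the dye and treated the array as a random block, with p-values adjusted by Benjamini-Hochberg and a threshold of 0.05. It called 34.1% of all genes, 5.79% as higher and 28.3% as lower in CES, so that 1 call among 4 subunits stands beside that background. Under the scaling used here, the differences were positive for 4 of 4 subunits and for 31.5% of all genes. The median of all CES minus COS differences was then −0.25 on the log2 scale. With scaling over spots valid in all rats that median was 0.145, so the share of positive genes depends on the scaling. Each difference is therefore also given relative to the median gene. Under the scaling used here, with the dye effect not removed, COS replicate 4 was the lowest COS rat for 84.4% of all genes. CES replicates 2 and 4 were the lowest CES rat for 43.8% and 45.1%. All of these are Cy5 rats, and the part of the dye in this ranking was not tested. In bulk RNA, fewer cells of a type and less RNA per cell cannot be told apart.

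Grik1 encodes GluK1, a low-affinity subunit that in the hippocampus is best known from interneurons. Its log2 level, averaged over both probes and relative to the median valid spot of the channel, was −0.75, −1.39, −0.63 and −1.99 in COS replicates 1 to 4. In CES replicates 1 to 4 the log2 level was −0.44, −1.48, −0.11 and −0.91. The groups overlapped, with CES replicates 1 and 3 above every COS rat and CES replicate 2 below 3 of them. The log2 difference, CES minus COS, was 0.45 (SE 0.20, n = 4 and 4, limma adjusted p = 0.108), which is 0.71 above the median gene. In the log2 level of the first probe alone, the COS rats had −0.10, −0.65, 0.03 and −1.16 and the CES rats 0.34, −0.61, 0.64 and −0.01. That probe differed by 0.56 (SE 0.20, limma adjusted p = 0.0516 over all probes, of which 5.48% were called higher). The second probe, which was not well above background in any rat, gets no fold. With only those spots that were well above background in 8 of 8 rats, a setting that calls 16.2% of genes higher, Grik1 rested on the first probe and differed by 1.01 (limma adjusted p = 0.0055).

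Grik2 encodes GluK2, the low-affinity subunit needed for most postsynaptic kainate currents of CA3 pyramidal cells. Its log2 level was 0.83, −0.42, −0.76 and −1.51 in COS replicates 1 to 4 and 1.35, −2.35, 1.34 and −0.31 in CES replicates 1 to 4. The CES rats thus included both the highest and the lowest value of the 8. The log2 difference was 0.47 (SE 0.54, limma adjusted p = 0.525), which is 0.73 above the median gene, and its standard error was the widest of the 4 subunits. Within Cy3 the difference was 1.31 and within Cy5 it was −0.37, where CES replicate 2 (−2.35) lay below both COS rats and CES replicate 4 (−0.31) above both. Without CES replicate 2 the difference was 1.05. A dye effect common to both groups cancels in a difference within Cy5, and the negative value there rested on CES replicate 2. After subtraction of the mean dye effect, that rat stood at −0.51 and CES replicates 1, 3 and 4 at 1.355, 1.34 and 1.52. Why that rat read low was not tested. On each array the Cy5 rat read lower than the Cy3 rat, by a log2 difference of −1.25 and −0.75 on the COS arrays and −3.71 and −1.65 on the CES arrays.

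Grik4 encodes GluK4, a high-affinity subunit known above all from CA3 pyramidal cells and also from granule cells. Its log2 level was 2.33, 2.21, 2.91 and 2.11 in COS replicates 1 to 4. In CES replicates 1 to 4 it was 3.47, 2.43, 3.40 and 3.02. CES replicates 1, 3 and 4 lay above every COS rat, and CES replicate 2 lay below COS replicate 3 but above the other COS rats, so that the CES rat was higher in 15 of 16 pairs of rats. The log2 difference was 0.69 (SE 0.20, limma adjusted p = 0.0252), a 1.61-fold difference, and lay 0.94 above the median gene. A difference at least this large was found for 4.83% of all genes. Within Cy3 the difference was 0.81 and within Cy5 it was 0.56.

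Grik5 encodes GluK5, the other high-affinity subunit, which is widely expressed in hippocampal neurons and pairs mostly with GluK2. Its log2 level was 1.91, 1.96, 2.14 and 1.48 in COS replicates 1 to 4 and 2.69, 1.60, 2.70 and 2.44 in CES replicates 1 to 4. CES replicates 1, 3 and 4 lay above every COS rat, whereas CES replicate 2 lay below all but COS replicate 4. The log2 difference was 0.48 (SE 0.22, limma adjusted p = 0.113), which is 0.74 above the median gene. It was 0.67 within Cy3 and 0.30 within Cy5.

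**Figure D2:**
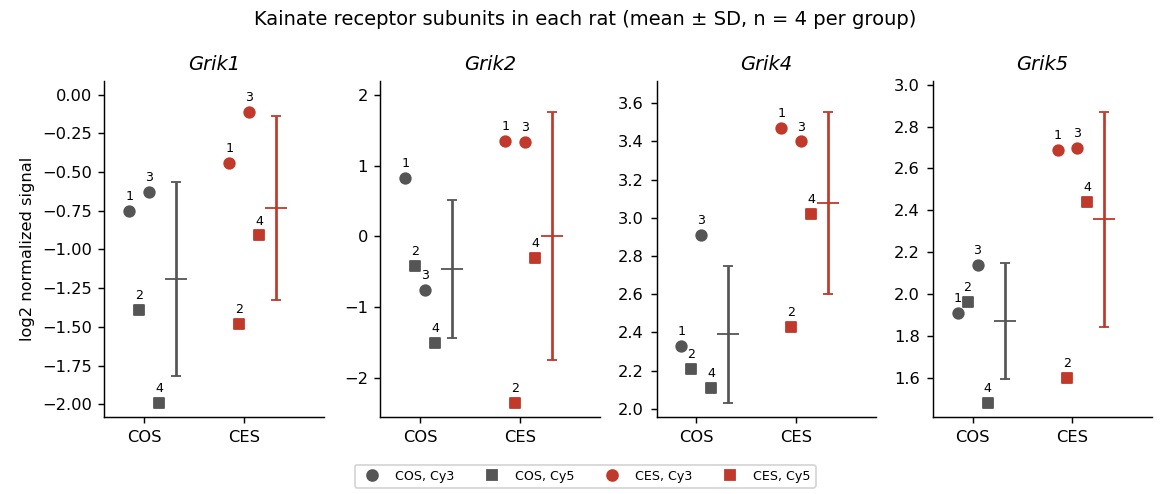
Log2 normalized signal of each quantified subunit in each rat, numbered by replicate, with circles for Cy3 and squares for Cy5, and the mean ± SD of each group (n = 4). Scales differ between panels. The dye effect is not removed. CES replicate 2 is the lowest CES rat and COS replicate 4 the lowest COS rat in all 4 panels, and the groups overlap in each.

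Before removal of the dye effect, the groups overlapped for 4 of 4 quantified subunits. Among all genes 21.4% then had groups that did not overlap, 1.61% with CES above and 19.8% with CES below COS. After subtraction of that effect, Grik4 ran from 2.33 to 2.91 in COS and from 3.01 to 3.605 in CES, without overlap. Grik1, Grik2 and Grik5 still overlapped. The dye effect was taken from the same rats, so its subtraction by itself can narrow the spread within the groups. The share of all genes without overlap after this subtraction was not computed. The 1.61% before it cannot stand in for that share, so no conclusion is drawn from the lack of overlap for Grik4. Before that subtraction, CES replicate 2 was the lowest CES rat and COS replicate 4 the lowest COS rat for 4 of 4 subunits. Both are Cy5 rats, and they were the lowest of their group for 43.8% and 84.35% of all genes. After the subtraction CES replicate 2 remained the lowest CES rat for each subunit. COS replicate 4 was then the lowest COS rat for Grik1 only, with COS replicate 3 lowest for Grik2 and COS replicate 1 for Grik4 and Grik5. Without CES replicate 2, limma called 4 of 4 subunits higher, beside 8.70% of all genes. The log2 difference was then 0.56 for Grik1 (adjusted p = 0.0494), 1.05 for Grik2 (adjusted p = 0.0494), 0.83 for Grik4 (adjusted p = 0.0058) and 0.69 for Grik5 (adjusted p = 0.0128). Grik4 lost its call without COS replicate 1 (0.55, adjusted p = 0.0976), without COS replicate 3 (0.77, adjusted p = 0.0777) without COS replicate 4 (0.68, adjusted p = 0.0775) or without CES replicate 1 (0.64, adjusted p = 0.0947). Grik2 without COS replicate 3 differed by 0.02 (adjusted p = 0.987), without CES replicate 1 by 0.24, without CES replicate 3 by 0.19 and without CES replicate 4 by 0.14.

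The number of subunits that passed depended on the scaling of the channels. After loess followed by Aquantile normalization, which moved the median of all genes to 0.08 and called 15.0% of genes higher, Grik1 differed by 0.82 (limma adjusted p = 0.0216), Grik4 by 1.05 (adjusted p = 0.0221) and Grik5 by 0.87 (adjusted p = 0.0487). Grik2 differed by 0.85 (adjusted p = 0.405) under the same setting. Measured from the median gene of each setting, the Grik4 difference lay between 0.83 and 1.11 over 24 alternatives, that of Grik5 between 0.60 and 0.96, that of Grik1 between 0.34 and 0.85, and that of Grik2 between 0.22 and 1.32 over 23 alternatives. Grik4 lost its call after normexp correction (0.77, adjusted p = 0.292), when spots were not filtered for validity (adjusted p = 0.0882) and under the methods' t-test (adjusted p = 0.201).

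**Figure D3:**
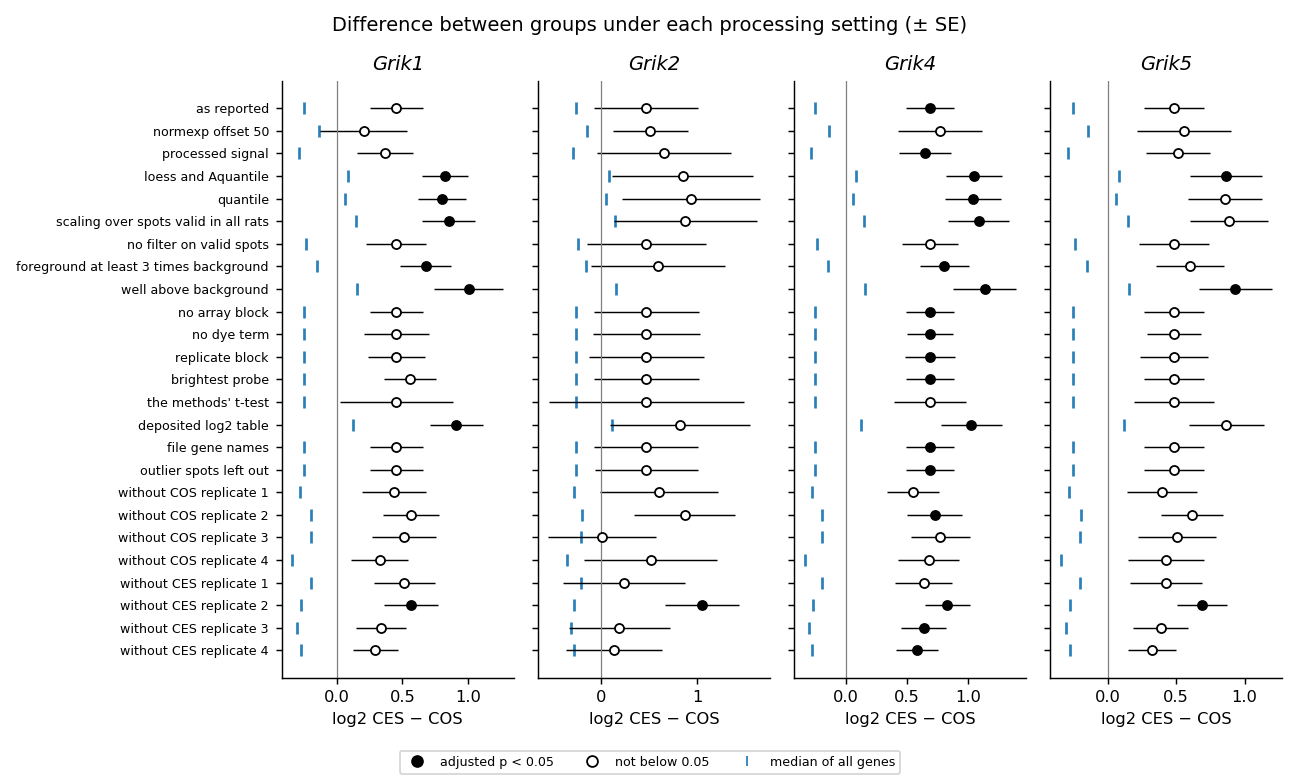
Log2 difference, CES minus COS, with its SE for each quantified subunit as reported and under each alternative, filled where the adjusted p was under 0.05, with a blue bar at the median difference of all genes under the same setting. Every point lies to the right of 0 and of its blue bar. Grik2 has no value in the setting that requires spots well above background in every rat.

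The subunits were also compared with each other within each rat, where the scale of the channel cancels. The log2 difference Grik4 minus Grik5 lay between 0.25 and 0.77 in COS and between 0.58 and 0.82 in CES. It changed by 0.20 between the groups (exact permutation test, p = 0.171, adjusted p = 1 over 6 pairs). Grik1 minus Grik4 changed by −0.23 (exact permutation test, p = 0.371) and Grik1 minus Grik5 by −0.03 (exact permutation test, p = 0.914). The 3 pairs that contain Grik2 changed by −0.02, −0.22 and −0.01, with wide spread in both groups. The groups overlapped for 6 of 6 pairs, and no pair passed the test. With 4 rats per group the smallest possible p of this permutation test is 0.0286. After adjustment over 6 pairs, a single pair could therefore not pass on its own. The result does not show that the subunits responded alike.

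Across the 8 rats, after subtraction of the mean dye effect of each gene, the log2 level of Grik5 varied with those of Grik4 and Grik1 (Pearson r = 0.898 for each), and Grik1 with Grik4 (r = 0.801). Grik2 followed the others less closely, with r between 0.381 and 0.695. These are descriptions over 8 rats that share arrays and scaling. Among 6723 genes named through a RefSeq accession and with every spot used well above background in all rats, the pattern most like Grik4 was that of Mtus2, followed by Nap1l2 and B3gat1 (r = 0.989 for each). For Grik5 these were Camkv (r = 0.992), Osbpl1a and Smpd2, for Grik1 Atp5me (r = 0.996), Fbxo41 and Cfap20, and for Grik2 Dbi (r = 0.991), Prkag2 and Ddn.

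The labelled tissue was checked against marker genes, since the subunits differ between hippocampal cell types. Of the 5 granule cell markers, Calb1, a calcium-binding protein, and C1ql2 were well above background in all rats, Dsp in 3 COS and 2 CES rats, and Prox1 and Tdo2 in none. Of the 4 quantified granule cell markers, Dsp, C1ql2 and Tdo2 were called lower in CES. The log2 of their summed level ran from 3.65 to 4.48 in COS and from 3.14 to 3.68 in CES. Of the 7 names listed for CA3 pyramidal cells, 6 were quantified and Iyd was well above background in 0 rats. Pvrl3 and Nectin3 in that list are an older and a newer name of the same gene. Nptx1, a neuronal pentraxin, was called higher by 0.86 (limma adjusted p = 0.0143), and the other 5 differed by −0.56 to 0.20 without a call. The log2 of the summed CA3 list ran from 4.99 to 5.86 in COS and from 5.56 to 6.37 in CES. Of the 7 CA1 and CA2 markers, 4 were called higher, among them Wfs1 by 0.98 and Mpped1 by 1.21, and the log2 of their sum ran from 6.45 to 7.01 in COS and from 6.65 to 7.08 in CES. For the 6 interneuron markers the log2 of the sum ran from 7.68 to 8.45 in COS and from 6.41 to 7.42 in CES, without overlap. Among single genes, 19.8% had CES below COS without overlap. The interneuron sum differed by −1.19, a larger fall than that of any of its members except Sst. Of these markers Sst (−1.56) and Vip (−1.06) were called lower. Gad1, Gad2 and Slc32a1 differed by −0.57, −0.58 and −0.33 without a call. Pvalb went the other way, by 0.51, also without a call. For the 5 microglial markers it ran from 4.65 to 5.21 in COS and from 3.99 to 4.53 in CES, and Itgam and Csf1r were called lower. The 5 astrocyte markers summed to a log2 level of 7.40 to 7.57 in COS and 7.23 to 7.84 in CES. Aldh1l1 (1.23, limma adjusted p = 0.0065) and Gja1 (1.27, limma adjusted p = 0.0340) were called higher. Gfap went the other way, by −1.19 (limma adjusted p = 0.0618), and Slc1a3 and Aqp4 differed by −0.07 and 0.04, all without a call. The choroid plexus sum, which includes Ttr, spread from 3.73 to 9.26 within COS and from 3.99 to 7.58 within CES, with no marker called. The general neuronal sum ran from 8.72 to 9.20 in COS and from 8.83 to 9.05 in CES, with Syt1 called higher and Nefl lower. The oligodendrocyte sum ran from 7.80 to 8.66 in COS and from 8.23 to 8.86 in CES, with no call. Of the precursor and endothelial markers, Cspg4 and Flt1 were called lower, and both sums overlapped between the groups.

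**Figure D4:**
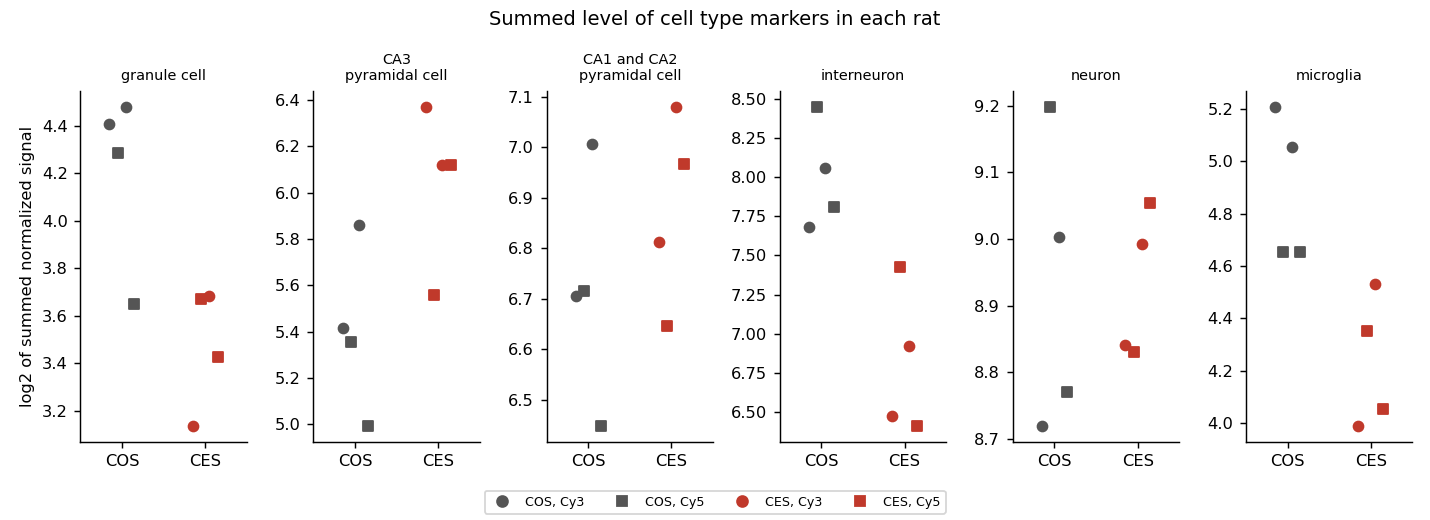
Log2 of the summed normalized signal of 6 marker lists in each rat, with circles for Cy3 and squares for Cy5. CES lies below COS for interneuron and microglial markers without overlap, as for 19.8% of single genes. The interneuron sum fell more than any of its members except Sst. CES lies mostly below for granule cell markers and mostly above for CA3 markers, where the rise of the sum rests on Nptx1.

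The change of each subunit was also taken relative to these sums within each rat. The Grik4 level relative to the summed CA3 level changed by 0.05 from COS to CES, that of Grik5 by −0.15 and that of Grik1 by −0.18. These 3 values rest on Nptx1: the sum of the other 5 CA3 names changed by −0.08, and relative to it, an alternative chosen after seeing the data, the change was 0.77 for Grik4, 0.57 for Grik5 and 0.54 for Grik1. Relative to the summed granule cell level the change was 1.41 for Grik4, 1.21 for Grik5 and 1.18 for Grik1. Relative to the 5 general neuronal markers quantified it was 0.68, 0.48 and 0.45. For Grik1 and the summed interneuron markers it was 1.64. Those markers did not all move the same way, and their sum fell more than any of them except Sst. A change relative to a sum without Sst was not computed. The part of cell composition in the differences of the subunits was not tested.

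The partners of the receptor did not move as a block. Of 19 genes on the lists of auxiliary subunits, scaffold and trafficking partners, mossy fibre organisers and RNA editing enzymes, 18 were quantified, of which 1 was called higher and 4 lower. Their median log2 difference was −0.12. This stands beside 5.79% and 28.3% of all genes and a median of −0.25.

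Neto1, which encodes a transmembrane auxiliary subunit that binds kainate receptors and shapes their gating, was the partner called higher. Its log2 level was 1.38, 1.40, 1.78 and 1.25 in COS replicates 1 to 4 and 2.85, 1.98, 3.09 and 2.85 in CES replicates 1 to 4. The lowest CES rat lay above the highest COS rat, as for 1.61% of all genes. The log2 difference was 1.24 (SE 0.22, limma adjusted p = 0.0049), it was 1.39 within Cy3 and 1.09 within Cy5, and after loess it was 1.61 (adjusted p = 0.0155). Neto2, the related auxiliary subunit, differed by 0.10 (SE 0.21, limma adjusted p = 0.732).

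Of 11 quantified scaffold and trafficking partners, 0 were called higher and 3 lower, beside 5.79% and 28.3% of all genes. Dlg1, a membrane-associated guanylate kinase, differed by −0.61 (limma adjusted p = 0.0283), with every CES rat below every COS rat, as for 19.8% of all genes. Grip1 and Pick1, PDZ proteins that bind the tails of AMPA and kainate receptor subunits, differed by −0.76 (adjusted p = 0.0130) and −0.51 (adjusted p = 0.0367). Relative to the median gene, Dlg1, Grip1 and Pick1 differed by −0.36, −0.51 and −0.25. After loess none of the 3 was called, and their differences were −0.21, −0.37 and −0.12. Dlg4, which encodes PSD-95, differed by 0.25 (adjusted p = 0.466) and Nsf, an ATPase of membrane fusion, by 0.11 (adjusted p = 0.654). The remaining 6 ran from −0.36 for Cask to 0.05 for Klhl17.

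C1ql2 and C1ql3 encode secreted C1q-like proteins of mossy fibres that gather kainate receptors opposite the terminal. The log2 level of C1ql2, also in the granule cell list above, was 3.41, 3.58, 3.50 and 2.75 in COS replicates 1 to 4 and 1.70, 2.83, 1.86 and 1.92 in CES replicates 1 to 4. Only CES replicate 2 reached the range of the COS rats. The log2 difference was −1.23 (SE 0.28, limma adjusted p = 0.0104), and after loess it was −0.85 (adjusted p = 0.0631). C1ql3 differed by 0.17 (adjusted p = 0.716) and Nrxn3, which encodes their neurexin partner, also by 0.17 (adjusted p = 0.480). Of the RNA editing enzymes, Adarb1, which edits GluK1 and GluK2 transcripts, differed by −0.27 (adjusted p = 0.200) and Adar by −0.29 (adjusted p = 0.236), while Adarb2 was not quantified.

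**Figure D5:**
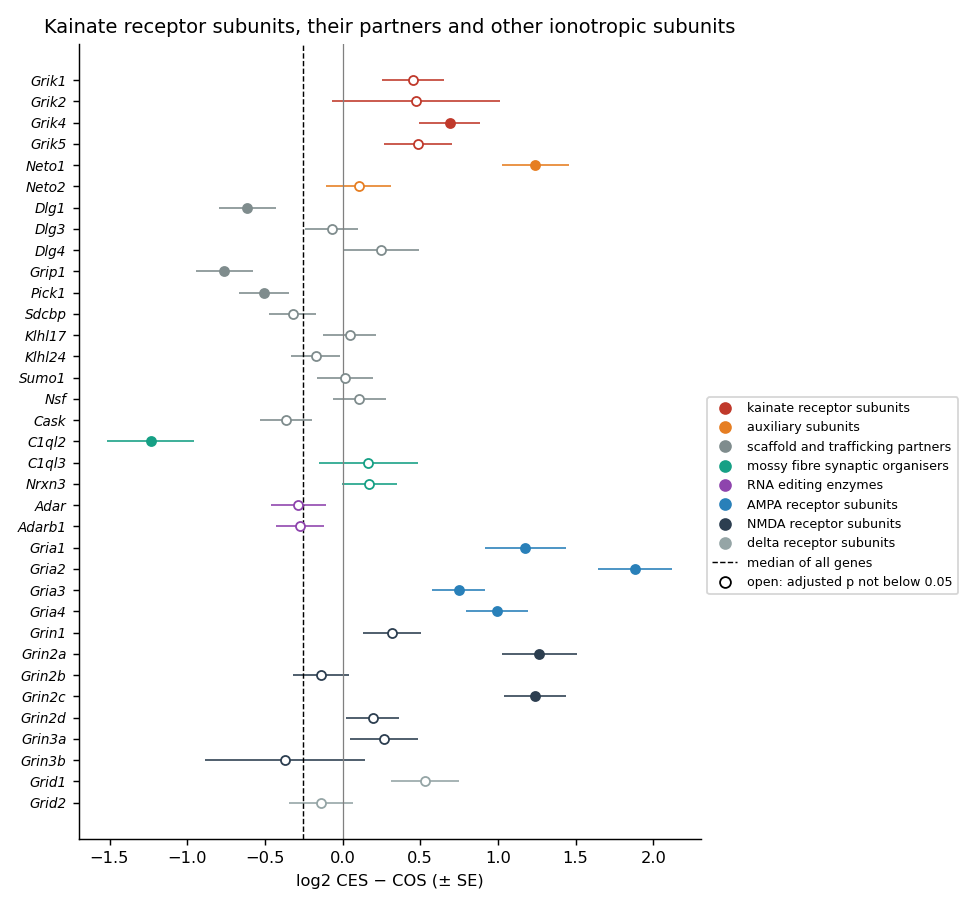
Log2 difference, CES minus COS, with its SE for each quantified kainate receptor subunit, partner gene and other ionotropic glutamate receptor subunit, coloured by list and filled where the adjusted p was under 0.05, with a dashed line at the median of all genes (−0.25). The kainate receptor subunits lie between 0.45 and 0.69, Neto1 at 1.24 and C1ql2 at −1.23.

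Among the other ionotropic glutamate receptor subunits, 6 of 13 were called higher and 0 lower, beside 5.79% and 28.3% of all genes. The 4 AMPA receptor subunits were all called, with a median difference of 1.08 and the largest, 1.88, for Gria2. Of 7 NMDA receptor subunits 2 were called, Grin2a (1.27) and Grin2c (1.24), and of 2 delta receptor subunits none was, Grid1 differing by 0.53 (limma adjusted p = 0.0872). The median over the 4 quantified kainate receptor subunits was 0.48, and whether the families differ was not tested.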

How the data were processed

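Per the labels, RNA of 8 rats was hybridized to 2-colour arrays, and groups, replicate numbers and dyes come from the sample records. The deposited scanner files hold spot and background intensity per channel, extracted by the authors with Agilent Feature Extraction 10.7.3.1 and not yet normalized. A second deposited table gives log2 values from the authors, each column of which differed from the log2 of median signal minus background by a constant. The authors' iterative renormalization is not included and was not repeated. No spot was saturated.

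Following the methods, the background-subtracted mean signal of spots valid in all 8 rats (foreground at least 2 times background) was scaled to the channel median of valid spots. The mean over all spots of each gene was then log2-transformed. Valid spots numbered 32381 to 38553 in COS and 30690 to 35352 in CES rats, and the median SE was 0.20. Of 41012 probes, 17512 were named through RefSeq accessions, the rest as in the files. The fit used limma 3.58.1 and statmod 1.5.0 in R 4.3.3, tested on simulated data. Pairs of subunits used exact permutation tests over all splits of the 8 rats, written in Python. Named genes are the subunits, the genes of the lists that were called or serve as examples, and the 3 genes most like each subunit. The subunits and lists were chosen with earlier results of these data known. The 24 alternatives covered background correction, signal, scaling, spot filters, blocks, dye, probes, test, deposited log2 table, names, outlier spots (kept as reported) and each rat left out. Tables and figures were made with pandas 2.3.3, numpy 2.4.6 and matplotlib 3.10.9 in Python 3.11.15, and files were read in R with the package data.table (version 1.17.8).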

Additional observations from a re-analysis of the deposited data

Results flagged for a closer look

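In 42 groups of 4 rats screened for a value far from its group, of which chance alone marks about 1 in 20, 4 values stood apart. The log2 difference Grik1 minus Grik4 was highest in CES replicate 3, at −3.51. The log2 level of Grip1 was lowest in COS replicate 4, at 1.64, and so was that of Gria1, at 0.94. The log2 level of Gria2 was lowest in CES replicate 2, at 3.60. No level of a kainate receptor subunit was marked.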

How the results depend on the processing

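The differences of Grik1, Grik4 and Grik5 were positive under all 24 alternatives and that of Grik2 under the 23 that gave a value. Grik1 passed the threshold after loess and Aquantile (0.82), quantile normalization (0.80), scaling over the shared valid spots (0.85), with foreground at least 3 times background (0.68), with spots well above background (1.01) and in the deposited log2 table (0.91). Its first probe passed under the same 6 settings (0.95, 0.94, 0.96, 0.68, 1.01 and 0.91). Grik5 passed after loess and Aquantile (0.87) and with spots well above background (0.93). Grik4 lost its call with normexp (0.77), with no filter (0.69) and under the methods' t-test (0.69, with an adjusted p of 0.201). The methods' t-test called 0 genes after adjustment, against 6114 at an unadjusted p under 0.05, where limma had 9657.

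With one rat left out, the difference ran from 0.29 to 0.57 for Grik1, 0.0167 to 1.05 for Grik2, 0.55 to 0.83 for Grik4, 0.32 to 0.69 for Grik5 and 0.40 to 0.67 for the first Grik1 probe. Genes called higher, 1238 as reported, then numbered 262 to 1860 and genes called lower, 6054 as reported, 932 to 7029, partner genes called 1 to 5 and other ionotropic subunits called 3 to 7. The change of Grik1 minus Grik2 ran from −0.56 to 0.33, of Grik1 minus Grik5 from −0.17 to 0.10, of Grik2 minus Grik4 from −0.55 to 0.35 and of Grik2 minus Grik5 from −0.35 to 0.52. Other changes of sign in pairs were Grik2 minus Grik4 (0.0064) and Grik2 minus Grik5 (0.14) with the processed signal, Grik2 minus Grik5 (0.0767) after quantile normalization, Grik1 minus Grik2 with foreground at least 3 times background (0.0858), the brightest probe (0.0858) and the log2 table (0.0917), and Grik1 minus Grik5 with foreground at least 3 times background (0.0740), spots well above background (0.0739), the brightest probe (0.0739) and the log2 table (0.0462). None of these passed the test, which a single pair could not pass on its own.

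The numbers of genes higher and lower were 123 and 454 with normexp, 3207 and 1841 after loess, 3059 and 2226 after quantile normalization, 3352 and 1720 with scaling over the shared valid spots, 421 and 2790 with no filter, 2226 and 880 with spots well above background, 3285 and 1936 in the log2 table, and 0 and 0 by the methods' t-test. With foreground at least 3 times background 2835 were lower. Partner genes called, 5 as reported, numbered 1 with normexp, after loess, with no filter and with spots well above background, 2 after quantile normalization and with scaling over shared spots, 3 with foreground at least 3 times background and in the log2 table, and 0 by the methods' t-test. Other ionotropic subunits called, 6 as reported, numbered 2 with normexp and 0 by that t-test. The cause of these changes was not tested.

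Replicate numbers coincide with the dye. After subtraction of the dye effect, rats of the same number correlated by −0.28 to 0.08. The dye effect was averaged over the groups, which by itself lowers the correlation between rats of the same dye. These values therefore cannot show whether the numbers share more than the dye. The replicate block left Grik4 at 0.69 (limma adjusted p = 0.0385) and called 1077 genes higher and 6147 lower. The number of arrays limits the precision, and signal over background kept Grik3 from comparison.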
